A study of Mus musculus with 8 samples.

Results

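The 45 genes described here make up the core of the cell division programme: 24 genes of mitosis, 16 genes of the G1/S transition and DNA replication, 2 D-type cyclins and 3 inhibitors of cyclin-dependent kinases. They were chosen by symbol, and all 45 were found by Ensembl identifier among the 55416 genes of the count table. RNA-seq had been done on epidermis peeled from the dorsal skin of P4 mice (postnatal day 4), with 4 control libraries (A1, B1, C1 and C6) and 4 RoraEKO libraries (A3, B4, C2 and C3). RoraEKO mice carry a Rora flox/flox allele pair and a K14-Cre transgene, so that the nuclear receptor gene Rora is deleted in cells in which the keratin 14 promoter is or has been active, that is, keratinocytes of the basal layer, their progeny and hair follicle epithelium. The control libraries are labelled wild type, and whether those mice carried a floxed allele or Cre is not given in the sources used here. The study was set up to ask what epidermal Rora does for keratinocyte differentiation and skin inflammation. The comparison here asks whether the RNA of the division programme differed between the genotypes, and whether S phase and mitosis genes behaved alike.

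In the interfollicular epidermis, cells divide in the basal layer and stop dividing as they move up and differentiate, while the matrix of the growing hair follicle divides fast. Cyclin D with its kinase partners commits a cell to division in G1, E2F factors then switch on the genes for DNA synthesis, and cyclin B with CDK1 drives the cell into mitosis, where the spindle checkpoint holds back chromosome separation until every chromosome is attached. S phase genes are largely driven through E2F sites in their promoters, and mitosis genes through CCAAT boxes and the CHR element, which the MuvB complex binds.

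The promoters of these genes differ in CHR elements and E2F motifs, and less in CCAAT boxes. RefSeq windows (GRCm38.p6, 250 bases before to 50 bases after the start of transcription) were at hand for 34 of the 45 genes. A CHR element (searched with the letters TTTGAA, with the letters TTCGAA and with the letters TTTAAA) was in 18 of the 19 windows of mitosis genes, and a CCAAT box in 17 of them, against 28.8% and 37.4% of all 32851 windows. An E2F motif (TTTCGCGC, TTTGGCGC, TTTCCCGC or TTTGCCGC) was in 6 of the 14 windows of 13 S phase genes and in 1 of the 19 mitosis windows, against 2.26% of all windows. The core of the ROR response element (TAGGTCA or TGGGTCA) was in none of the mitosis windows and in 3 S phase windows, those of Cdc6, Mcm2 and 1 of the 2 of Mcm7, against 6.45% of all windows. The 14 S phase windows also held CHR elements (5 windows, 35.7%) and CCAAT boxes (9 windows, 64.3%), so that CCAAT boxes were frequent in both groups. Both strands were searched, and a match is a description of these letters, not of a bound site. The 5 stretches printed here run from 120 bases before the start to the 20 bases from the start on, each 140 bases long and written along the strand of the gene, with these motifs in capitals. They are shown because they belong to the mitosis gene that differed most between the genotypes (Ttk), a pair of other mitosis genes with log2 fold changes of -1.27 and -0.54 that did not pass the test (Cdc20 and Ccnb1), and the S phase genes with the lowest fold change (Rrm2) and with the most E2F matches in the window printed (Mcm6).
Ttk, chr9:83834569-83834708, plus strand: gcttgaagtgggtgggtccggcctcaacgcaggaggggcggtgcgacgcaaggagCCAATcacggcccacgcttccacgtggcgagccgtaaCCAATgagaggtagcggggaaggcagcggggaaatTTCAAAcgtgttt
Cdc20, chr4:118437324-118437463, minus strand: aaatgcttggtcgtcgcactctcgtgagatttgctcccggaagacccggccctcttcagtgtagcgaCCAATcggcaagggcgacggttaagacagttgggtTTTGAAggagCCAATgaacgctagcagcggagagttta
Ccnb1, chr13:100786467-100786606, minus strand: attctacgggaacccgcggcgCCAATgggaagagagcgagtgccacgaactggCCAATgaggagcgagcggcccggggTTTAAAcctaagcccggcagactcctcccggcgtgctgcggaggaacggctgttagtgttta
Rrm2, chr12:24708134-24708273, plus strand: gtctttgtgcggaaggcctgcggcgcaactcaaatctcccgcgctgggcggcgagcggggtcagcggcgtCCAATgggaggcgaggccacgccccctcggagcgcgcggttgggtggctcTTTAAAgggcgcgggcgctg
Mcm6, chr1:128359686-128359825, minus strand: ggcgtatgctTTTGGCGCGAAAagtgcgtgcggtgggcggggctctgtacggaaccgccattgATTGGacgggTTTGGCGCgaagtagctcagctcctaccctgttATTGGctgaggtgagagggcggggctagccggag
The stretches of Ttk, Cdc20 and Ccnb1 each hold a pair of CCAAT boxes and a single CHR element, in different arrangements. The CHR element follows both boxes in Ttk and Ccnb1 and lies between them in Cdc20. Mcm6 has 3 E2F matches, of which a pair overlap, and no CHR element in this stretch.

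Counts summed to between 17286903 and 26705533 per library. Levels are given as counts per 1000000 counts (CPM) after TMM scaling, and 3 counts correspond to between 0.113 and 0.196 CPM. Markers of suprabasal keratinocytes were high in all 8 libraries (Krt1 at 19686 to 52399 CPM), in A1 beside hair follicle markers of a like summed level, while those of the basal layer were low (Krt14 at 61.1 to 706 CPM), and the 6 fibroblast markers and 4 endothelial markers summed to at most 10.4 and 2.89 CPM. Rora itself was at 212 ± 66.6 CPM in control and 196 ± 34.6 CPM in RoraEKO libraries (SD, n = 4 each), so that the gene-level counts do not check the genotype labels. The labels do not give the sex of the mice. Xist, the RNA of the inactive X chromosome, was at 416 and 527 CPM in control libraries C1 and C6 and at most 0.0546 CPM in the other 6, while Ddx3y of the Y chromosome was at 0 in C1 and C6 and at 15.7 to 24.1 CPM in the other 6. C1 and C6 thus carry the RNA pattern of females and the other 2 controls and all 4 RoraEKO libraries that of males, so that sex is partly confounded with genotype in every difference given here. Calls that were lost with the Xist level as a covariate or without C1 and C6 are therefore named. Leaving out C1 and C6 keeps 2 control and 4 RoraEKO libraries of the male pattern. These are bulk libraries, in which fewer cells of a type and less RNA per cell cannot be told apart. Libraries were treated as separate animals. Of the 45 genes, 25 overlap another annotated gene, 13 of them a protein-coding gene on the opposite strand (Cdk1, Cdc20, Ube2c, Foxm1, Ccne1, Ccne2 and Ccnd1 among those given in full). Whether strand was used in counting is not given in the sources used here, so that reads of such partners may not be told apart.

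Of the 45 genes, 44 had enough counts to be tested, and 1 passed both cutoffs (adjusted p under 0.05 and a fold change over 1.5; edgeR quasi-likelihood test, p adjusted over all 13147 genes tested). That gene was Ttk, which was lower in RoraEKO. This makes 1 of 44 genes lower, beside 3.22% of all genes tested, and 0 of 44 higher, beside 2.3% of all genes. No member was higher with an unadjusted p under 0.05, or past the cutoffs with DESeq2 or limma-trend. The 4 control and 4 RoraEKO values did not overlap for Ttk and Cdkn1b, both lower in RoraEKO. The 2 of 44 compare with 7.54% of all genes that were lower without overlap, and the 0 members that were higher without overlap with 5.4%. The median log2 fold change (log2FC, RoraEKO over control) over the 44 genes was -0.03, next to -0.04 over all genes tested. For 23 of the 44 the whole 95% interval of the fold change (limma-trend) lay within 2-fold in either direction, beside 8884 of the 13147 genes tested. The members were less precisely measured than genes in general, with a median interval width of 1.46 in log2FC beside 0.93.

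**Figure D1:**
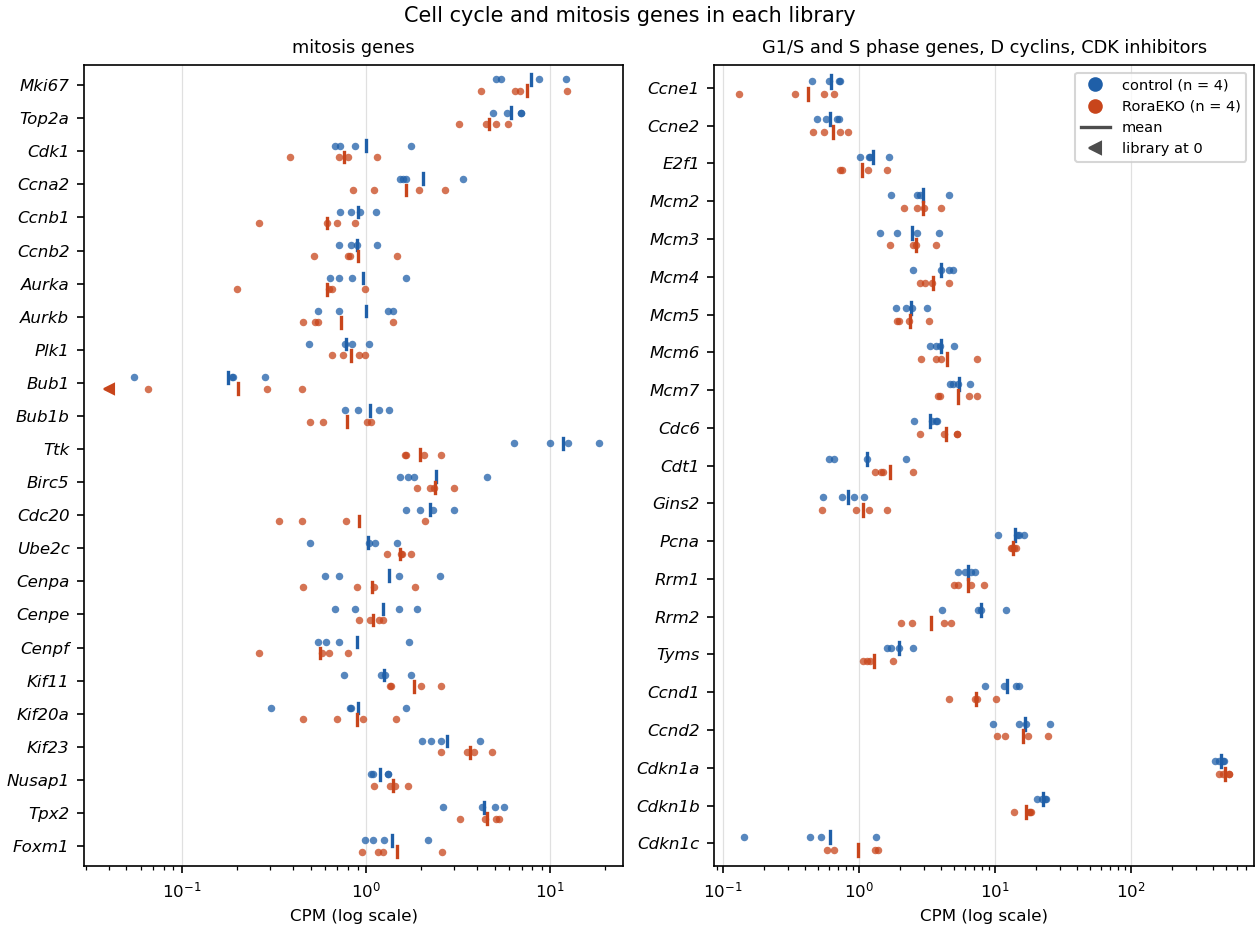
Level of each of the 45 genes in each library, in CPM on a log scale, with mitosis genes on the left and all others on the right. Blue points are the 4 control libraries, orange points the 4 RoraEKO libraries, and bars their means. Ttk stands apart, with control libraries at 6.39 to 18.4 CPM and RoraEKO libraries at 1.63 to 2.55 CPM, and Cdkn1a lies far above all others at 417 to 526 CPM.

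Ttk encodes a dual-specificity kinase (also called MPS1) that starts the spindle checkpoint at unattached kinetochores. The gene (ENSMUSG00000038379) lies on the plus strand at chr9:83703392-83755037 of GRCm39, and no other annotated gene overlaps it. Its level was 6.39, 12.5, 9.94 and 18.4 CPM in control libraries A1, B1, C1 and C6, and 1.63, 2.05, 2.55 and 1.65 CPM in RoraEKO libraries A3, B4, C2 and C3. Every RoraEKO library was below every control library, and the controls spread more widely. The mean fell from 11.8 ± 5.07 to 1.97 ± 0.435 CPM (SD, n = 4 each), a log2FC of -2.57 (SE of the difference of mean log2 CPM 0.348, adjusted p = 0.00193, edgeR quasi-likelihood test) or 5.95-fold lower. The 95% interval ran from -3.14 to -1.76. By the mean of the control libraries Ttk had the highest level of the 24 mitosis genes per kilobase of exon, at 1.92 CPM per kb. By the mean of the RoraEKO libraries it ranked as number 10 of them, at 0.321 CPM per kb. In control A1 alone Cdc20 was higher than Ttk per kb. Ttk was past both cutoffs in all 19 alternative analyses, with adjusted p between 4.66e-11 and 0.0222. With the Xist level as a covariate its log2FC was -2.23 (adjusted p = 0.00997), and without C1 and C6 it was -2.20 (adjusted p = 0.0164).

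The other mitosis genes were expressed at low levels, and none passed the cutoffs (edgeR, DESeq2 and limma-trend), with 1 at an unadjusted p under 0.05, Cdc20. Of the 24, 16 had a control mean under 2 CPM, and 11 had fewer than 10 counts in their lowest library, which sets how small a change these libraries can show. Mki67, which encodes the Ki-67 protein that coats mitotic chromosomes and marks cycling cells, was at 8.75, 5.41, 12.2 and 5.07 CPM in control and 4.24, 12.3, 6.46 and 6.84 CPM in RoraEKO libraries. The genotypes overlapped fully, with C1 and B4 the highest of each (log2FC -0.07, SE 0.430, adjusted p = 0.961, 95% interval -0.89 to 0.72). Top2a, the topoisomerase that untangles sister chromosomes, was at 4.87, 5.85, 6.96 and 6.94 CPM in control and 3.20, 5.92, 5.11 and 4.49 CPM in RoraEKO libraries. RoraEKO A3 and C3 were below every control, and B4 and C2 lay among the controls (log2FC -0.39, SE 0.221, adjusted p = 0.403, 95% interval -0.90 to 0.08).

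The engine of mitotic entry was near the floor of what could be measured. Cdk1, the mitotic kinase itself, was at 0.723, 0.874, 1.75 and 0.676 CPM in control and 0.718, 1.15, 0.385 and 0.799 CPM in RoraEKO libraries. Ccnb1, its cyclin partner, was at 0.723, 0.929, 1.14 and 0.826 CPM in control and 0.261, 0.616, 0.867 and 0.699 CPM in RoraEKO libraries. Both overlapped between genotypes and rested on few counts, 8 to 37 per library for Cdk1 and 4 to 24 for Ccnb1. Their log2FC values were -0.38 (95% interval -1.24 to 0.55) and -0.54 (-1.39 to 0.24), and those of Ccna2 and Ccnb2, the other mitotic cyclins, were -0.29 and 0.03. Plk1, the polo-like kinase that acts at centrosomes and kinetochores, was at 0.837, 0.765, 1.04 and 0.488 CPM in control and 0.653, 0.986, 0.915 and 0.749 CPM in RoraEKO libraries, again with full overlap (log2FC 0.09, interval -0.59 to 0.77).

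Among the kinases and checkpoint proteins that work beside Ttk, Aurka, Aurkb, Bub1b and Birc5 had log2FC values of -0.62, -0.42, -0.39 and -0.01, with adjusted p between 0.593 and 0.993. Bub1, the checkpoint kinase that recruits other checkpoint proteins to the kinetochore, was the member not tested. It had 0 to 11 counts per library, or at most 0.452 CPM. The 3 centromere genes Cenpa, Cenpe and Cenpf lay between -0.63 and -0.19. The 5 spindle motors and spindle proteins (Kif11, Kif20a, Kif23, Nusap1 and Tpx2) lay between 0.00 and 0.55, so that their fold changes and those of the centromere genes fell on opposite sides of 0 without any of them passing the test.

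Cdc20 activates the anaphase-promoting complex once the checkpoint is satisfied, and Ube2c is the ubiquitin-conjugating enzyme of that complex. Cdc20 was at 3.01, 1.97, 1.66 and 2.33 CPM in control and 0.783, 2.10, 0.337 and 0.449 CPM in RoraEKO libraries. RoraEKO libraries A3, C2 and C3 were below every control, and B4 lay among the controls. The log2FC was -1.27 (SE 0.548, adjusted p = 0.237), with a 95% interval of -2.55 to -0.41. Without B4 it was -2.12 with an adjusted p of 0.0204, which is past the cutoffs, so that this 1 library decides the call. Ube2c was at 0.495, 1.04, 1.47 and 1.13 CPM in control and 1.31, 1.56, 1.54 and 1.75 CPM in RoraEKO libraries, the highest fold change of the tested mitosis genes. Its ranges overlapped only through A3 and C1 (log2FC 0.58, SE 0.312, adjusted p = 0.425, 95% interval -0.11 to 1.34), and the log2FC was 1.08 without C1 and C6 (adjusted p = 0.272). Kif11, the plus-end motor that pushes spindle poles apart, was at 0.761, 1.2, 1.75 and 1.28 CPM in control and 1.37, 2.55, 1.35 and 2.0 CPM in RoraEKO libraries, and its log2FC of 0.55 had an adjusted p of 0.458. Foxm1, the transcription factor that drives many G2 and mitosis genes, was at 1.26, 0.984, 2.18 and 1.09 CPM in control and 1.24, 2.59, 1.16 and 0.949 CPM in RoraEKO libraries, a log2FC of 0.12 with an interval of -0.75 to 0.88. Genotypes overlapped for both, and B4 was the highest of the 8 libraries in each.

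**Figure D2:**
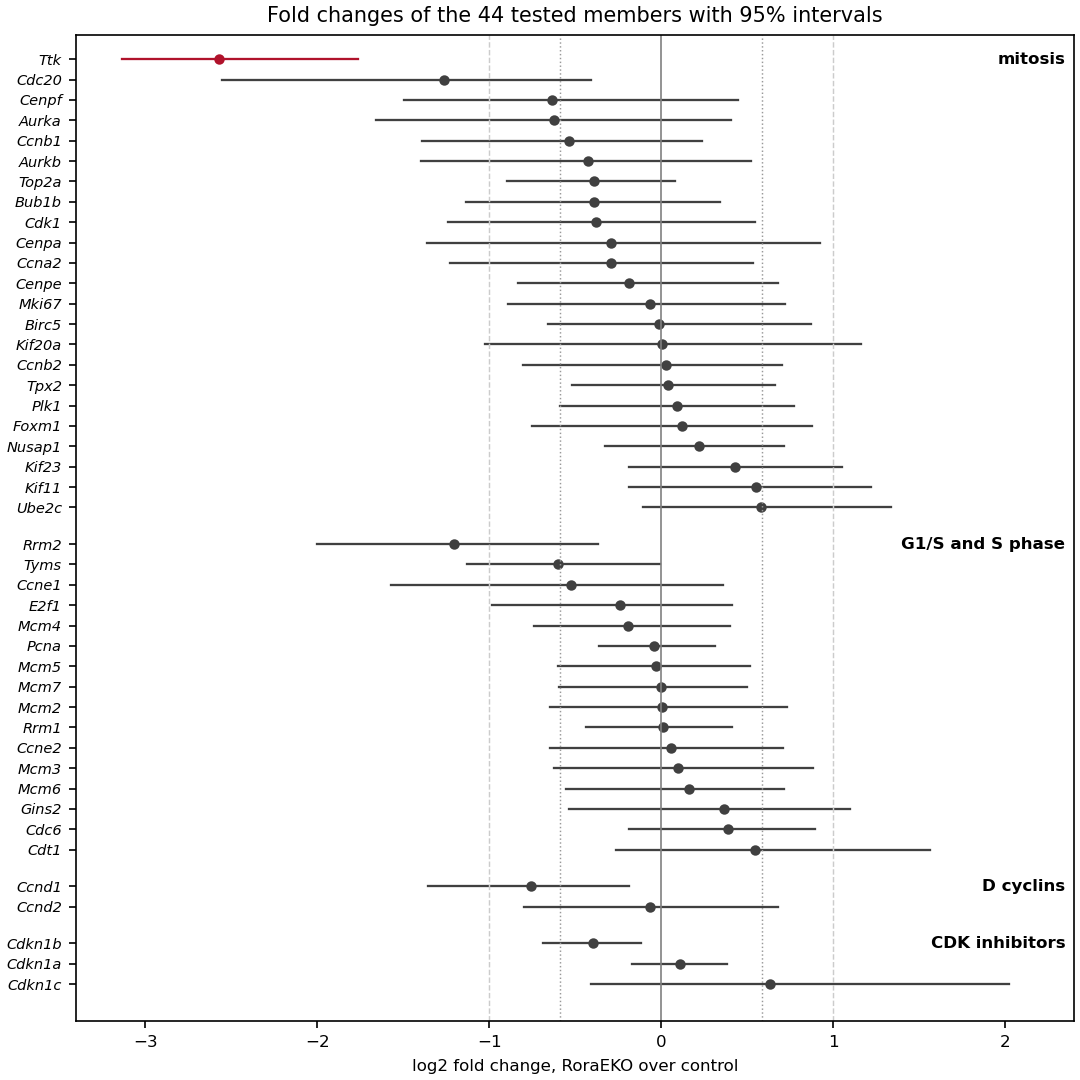
Log2FC of RoraEKO over control for the 44 tested genes (points, edgeR) with 95% intervals (lines, limma-trend), ordered within each group. Dotted lines mark the 1.5-fold cutoff and dashed lines 2-fold. Ttk, in red, is the only gene past both cutoffs, the intervals of Cdc20, Rrm2, Tyms, Ccnd1 and Cdkn1b lie below 0, and all others cross 0.

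The S phase genes were more precisely measured and included none past the cutoffs with edgeR or limma-trend. Of the 16, Rrm2 had an unadjusted p under 0.05 and was the only one called by DESeq2. The 6 subunits of the MCM helicase, Mcm2 to Mcm7, which unwinds DNA at the replication fork, had log2FC values between -0.19 and 0.16, and all 6 intervals lay within 2-fold. Mcm2 was at 2.82, 2.68, 4.59 and 1.73 CPM in control and 2.68, 3.99, 2.12 and 3.0 CPM in RoraEKO libraries, with full overlap and a log2FC of 0.00. Pcna, the sliding clamp of the replication fork, was at 10.5, 16.2, 15.1 and 14.5 CPM in control and 14.3, 13.7, 13.3 and 13.2 CPM in RoraEKO libraries. The RoraEKO values were close together and inside the control range, and the 95% interval of -0.36 to 0.31 was the narrowest among S phase genes (log2FC -0.04, SE 0.140, adjusted p = 0.939). The licensing factors Cdc6 and Cdt1, which load the helicase onto origins, and Gins2 of the active helicase had log2FC values of 0.39, 0.55 and 0.36, with adjusted p between 0.465 and 0.715.

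Upstream of replication, Ccne1 and Ccne2 encode the E cyclins, which work with CDK2 at the G1/S transition. Ccne1 was at 0.723, 0.601, 0.710 and 0.450 CPM in control and 0.131, 0.657, 0.337 and 0.549 CPM in RoraEKO libraries. Ccne2 was at 0.685, 0.492, 0.568 and 0.713 CPM in control and 0.457, 0.822, 0.723 and 0.549 CPM in RoraEKO libraries. Genotypes overlapped for both, and A3 was the lowest of the 8 libraries for each. The log2FC values were -0.52 (95% interval -1.57 to 0.36) and 0.06 (-0.65 to 0.71), and that of E2f1 was -0.24 (-0.98 to 0.41).

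None of the genes of nucleotide supply passed the cutoffs. Rrm2 encodes the small subunit of ribonucleotide reductase, which is limiting for dNTP synthesis in S phase, and was at 4.03, 7.81, 7.48 and 11.9 CPM in control and 2.02, 4.73, 4.24 and 2.45 CPM in RoraEKO libraries. The ranges overlapped through control A1, which was below RoraEKO B4 and C2. The mean went from 7.82 ± 3.23 to 3.36 ± 1.32 CPM (SD, n = 4 each), with a log2FC of -1.21 (SE 0.430, adjusted p = 0.0972, 95% interval -2.0 to -0.37). That is short of the cutoff, while Rrm2 passed it with DESeq2 (adjusted p = 0.0269), without control A1 (adjusted p = 0.0280) and with the title letter as a block (adjusted p = 0.0236, with a like fold). It was smaller and further from the cutoff with the Xist level as a covariate (log2FC -0.79, adjusted p = 0.339), without C1 and C6 (-0.75 and 0.411) and without C6 alone (-0.91 and 0.224). Rrm1, the large subunit, had a log2FC of 0.01 (interval -0.44 to 0.41). Tyms, thymidylate synthase, had one of -0.60 with an adjusted p of 0.292.

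The D cyclins and the inhibitors lie at the exit from and entry to the cycle. Ccnd1 was at 15.1, 11.7, 14.2 and 8.37 CPM in control and 7.37, 10.1, 4.58 and 7.09 CPM in RoraEKO libraries, so that control C6 was below RoraEKO B4 and the other values were separated (log2FC -0.76, SE 0.299, adjusted p = 0.142, 95% interval -1.35 to -0.18). Ccnd2 was at 25.3, 14.9, 16.9 and 9.61 CPM in control and 24.3, 17.3, 10.4 and 11.8 CPM in RoraEKO libraries. Control A1 and RoraEKO A3 were the highest 2, and the genotypes overlapped fully (log2FC -0.06, interval -0.80 to 0.68).

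Cdkn1a (p21), which halts the cycle downstream of p53 and during keratinocyte differentiation, had by far the highest level of the 45 genes, 75.3 CPM per kb in control libraries beside 5.85 CPM per kb for Pcna, the next. It was at 445, 483, 477 and 417 CPM in control and 444, 524, 526 and 470 CPM in RoraEKO libraries. Values overlapped, and the 95% interval of -0.17 to 0.39 holds the fold change within 1.5-fold (log2FC 0.11, SE 0.0776, adjusted p = 0.752). Cdkn1b (p27) was at 23.1, 20.4, 22.1 and 23.8 CPM in control and 18.3, 13.8, 17.8 and 18.1 CPM in RoraEKO libraries. Every RoraEKO library was below every control, and the fold was small (log2FC -0.40, SE 0.108, adjusted p = 0.113, 95% interval -0.69 to -0.11). Cdkn1c (p57) was at 1.33, 0.437, 0.142 and 0.525 CPM in control and 1.37, 0.657, 0.578 and 1.30 CPM in RoraEKO libraries, with the highest log2FC of the 44, 0.63, and the widest interval, -0.41 to 2.02. This value rests on single libraries: it was 1.36 without control A1, 0.32 without control C1 (where Ube2c at 0.80 was higher), 0.10 with the Xist level as a covariate and 0.16 without C1 and C6, and it passed the test in none of these.

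S phase and mitosis genes were then compared as groups. The median log2FC was 0.00 over the 16 S phase genes (8 above and 8 below 0) and -0.19 over the 23 tested mitosis genes (9 above and 14 below 0), next to -0.04 over all genes tested. Leaving out Ttk, the mitosis median was -0.13. The gap between the medians was 0.19, and it ran from 0.02 without control C1 to 0.30 without control B1. Among genes with at least 10 counts in every library the gap turned to -0.04, with a mitosis median of 0.04. The mitosis median itself was 0.03 without C1, -0.32 without B1, -0.30 without control C6 and -0.42 without RoraEKO B4, where the S phase median was -0.19. It was 0.01 without RoraEKO A3 and -0.04 without RoraEKO C2, and -0.03 with the Xist level as a covariate and 0.03 without C1 and C6. The mitosis genes were also the less precisely measured group: the 95% interval lay within 2-fold for 9 of 23 of them and for 11 of 16 S phase genes.

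In each library, the mean log2 CPM of the S phase genes was 1.37, 1.24, 1.64 and 1.26 in control and 1.11, 1.73, 1.12 and 1.21 in RoraEKO libraries. That of the mitosis genes was 0.69, 0.55, 1.24 and 0.56 in control and 0.17, 0.95, 0.47 and 0.42 in RoraEKO libraries. Control C1 and RoraEKO B4 were the highest of their genotype for both groups. The genotype means differed by -0.09 for S phase genes and by -0.25 for mitosis genes, and the spread within a genotype was 0.25 and 0.33 (pooled SD), so that both differences were smaller than the spread between libraries. Without Ttk the mitosis difference was -0.15. The difference between the groups within a library, S phase minus mitosis, was 0.62 ± 0.14 in control and 0.79 ± 0.12 in RoraEKO libraries (SD, n = 4 each), and the ranges of 0.40 to 0.70 and 0.64 to 0.95 overlapped. The genotypes differed in it by 0.17, beyond the pooled SD of 0.13, and without Ttk by 0.07, within the pooled SD of 0.15. Sample titles begin with A, B or C, which the sources used here do not explain. Within A, B and C, RoraEKO differed from control by -0.52, 0.40 and -0.45 for the mitosis mean, and by -0.26, 0.48 and -0.28 for the S phase mean. Both means were lower in RoraEKO within A and C and higher within B. S phase minus mitosis differed by 0.27, 0.08 and 0.16 within A, B and C, and by 0.20, -0.05 and 0.06 without Ttk.

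**Figure D3:**
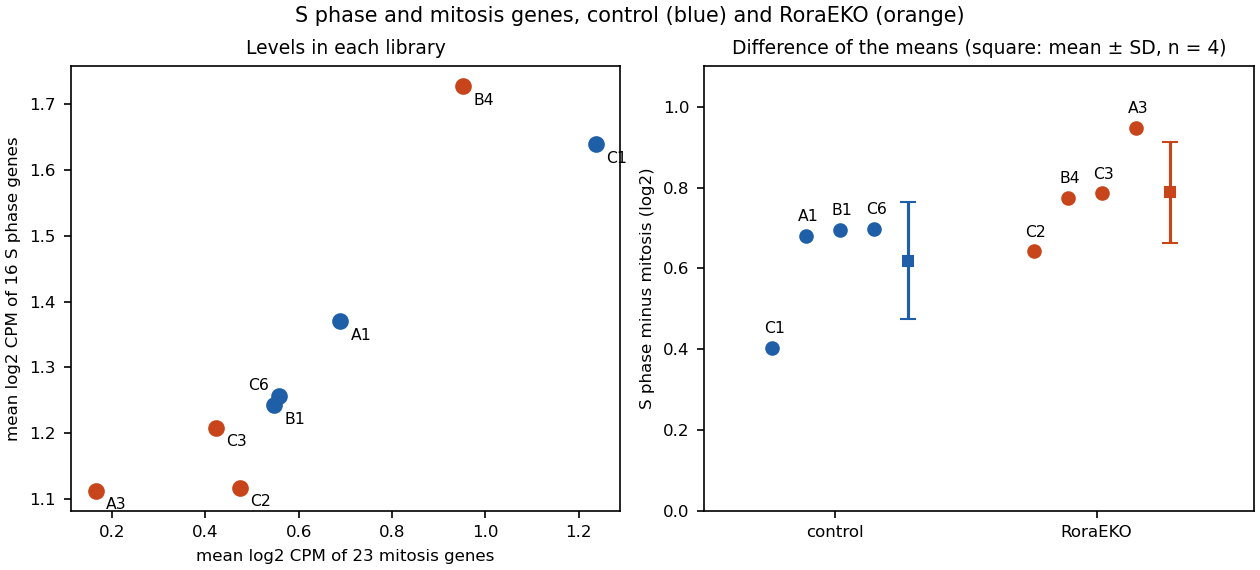
Left, mean log2 CPM of the 16 S phase genes against that of the 23 tested mitosis genes, 1 point for each library, labelled by name. Right, the difference of these means in each library, with the mean and SD of each genotype as squares with bars. Control C1 and RoraEKO B4 lie at the top of both scales, and the differences of 0.40 to 0.70 in control and 0.64 to 0.95 in RoraEKO libraries overlap.

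Levels of cell type markers are given beside these means. C1 was the highest control in 16 of the 23 mitosis and 9 of the 16 S phase genes, and B4 the highest RoraEKO library in 16 and 13. The summed level of 8 basal markers was 631, 473, 644 and 289.7 CPM in control and 363, 1265, 309 and 419.9 CPM in RoraEKO libraries, with C1 (little above A1) and B4 the highest. Krt5 and Krt14 make up much of this sum. Marker by marker, C1 was the highest control in 3 of 8 and A1 in 4, and B4 was the highest RoraEKO library in 7 of 8 but the lowest in Krt15. None of the 8 markers passed the cutoffs, 2 of them were above 0 and 6 below in log2FC, and the markers' part in the division genes was not tested. The 9 markers of hair matrix and inner root sheath did not follow this order. Their sum was 40742, 21329, 7465 and 7001 CPM in control and 27180, 26733, 12614 and 13680 CPM in RoraEKO libraries, with only C6 below C1, and 1 of the 9, Gata3, was lower (11.1%, beside 3.22% of all genes, log2FC -0.77, adjusted p = 0.0493). Gata3 kept the call in 7 of 19 alternatives, with log2FC between -0.95 and -0.55. It lost it without C1 and C6 (adjusted p = 0.0887), and without any 1 library other than C6. The 5 spinous markers were the class whose sums separated the genotypes, at 42234 to 67837 CPM in control and 83873 to 105006 CPM in RoraEKO libraries. Krt1 and Krt10 make up most of that sum and did not overlap (log2FC 0.70 and 0.66, adjusted p of 0.287 and 0.274). Over all genes tested, 5.4% were higher without overlap. The other 3 spinous markers, Dsg1a, Dsc1 and Sbsn, overlapped, with log2FC values of 0.02, 0.37 and -0.04, and none of the 5 passed the cutoffs. Of the 6 granular markers, 4 were above 0 and 2 below, and none passed the cutoffs. Among these Tgm1 was also higher without overlap (log2FC 0.70, adjusted p = 0.0578, edgeR quasi-likelihood test). The 5 melanocyte markers were all below 0 (median log2FC -0.84, 3 with an unadjusted p under 0.05, none past the cutoffs), with sums of 25.2 to 56.2 CPM in control and 17.3 to 33.2 CPM in RoraEKO libraries. The 5 erythroid markers summed to 47.8 to 334 CPM in control and 125 to 1041 CPM in RoraEKO libraries. All 5 were above 0 (median log2FC 1.94, 4 with an unadjusted p under 0.05), and none passed the cutoffs. The part of these cell types in the division genes was not tested either.

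A further 182 genes of the cell cycle were examined by list, of which 157 were tested, 3 were higher (1.91%, beside 2.3% of all genes tested) and 9 lower in RoraEKO (5.73%, beside 3.22%). The lists were chosen with earlier results of these data known. A share above that of all genes, here or in a list below, can therefore come from that choice and was not tested. Over the lists the medians stayed between -0.11 and 0.12 in log2FC. In each of the 12 genes past the cutoffs the genotypes did not overlap. These genes were selected by the same values, so that this adds no support to the calls. Over all genes tested, 5.4% were higher and 7.54% lower without overlap.

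**Figure D4:**
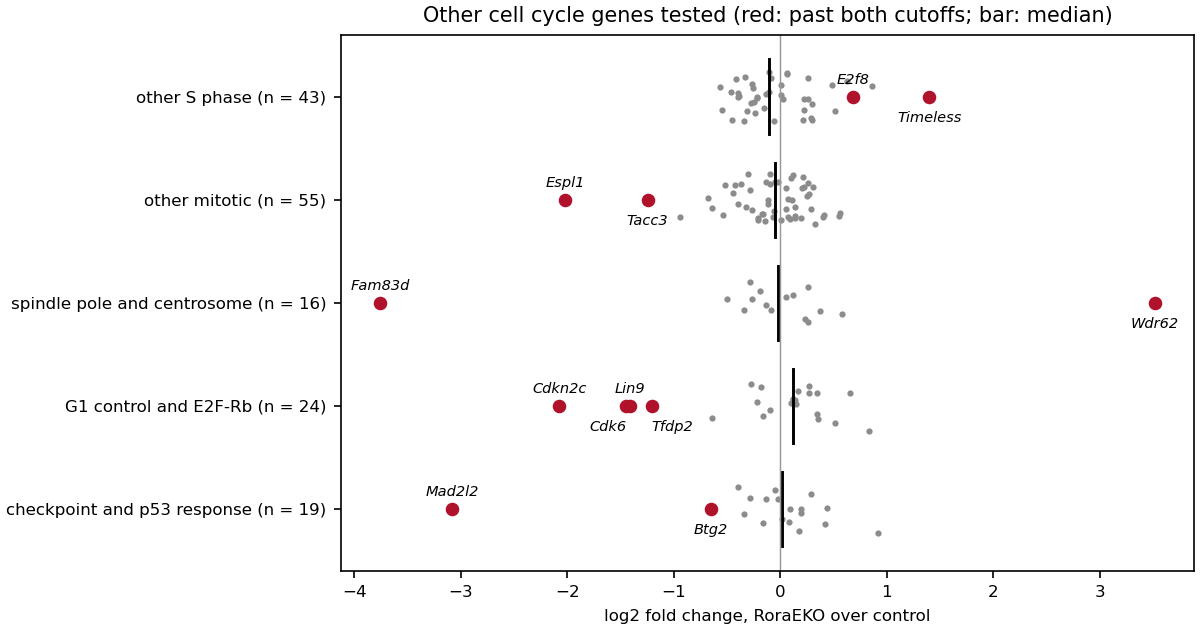
Log2FC of RoraEKO over control for every tested gene of 5 further cell cycle lists, with the number tested beside each list. Red points are the 12 genes past both cutoffs, grey points the others, and black bars the medians, which lie between -0.11 and 0.12. Vertical scatter within a list has no meaning.

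Of 24 tested genes for G1 control and the E2F-Rb axis, 4 passed the cutoffs, all lower in RoraEKO (16.7%, beside 3.22% of all genes), while 14 of the 24 had a log2FC above 0. Cdk6, a kinase partner of the D cyclins, was at 20.4, 34.0, 30.0 and 30.6 CPM in control and 12.3, 10.3, 10.1 and 9.49 CPM in RoraEKO libraries. It fell 2.73-fold (log2FC -1.45, SE 0.180, adjusted p = 0.00153). Cdkn2c (p18), an inhibitor of Cdk4 and Cdk6, was at 12.8, 17.2, 15.1 and 27 CPM in control and 3.85, 2.96, 5.30 and 4.99 CPM in RoraEKO libraries, 4.22-fold lower (log2FC -2.08, SE 0.298, adjusted p = 0.00239). A kinase and its inhibitor thus fell in the same libraries. Lin9 is a core subunit of MuvB, the complex that binds the CHR element, and was 7.47 ± 1.76 CPM in control and 2.81 ± 0.942 CPM in RoraEKO libraries (SD, n = 4 each; log2FC -1.41, adjusted p = 0.0180). The other 3 MuvB subunits tested, Lin54, Lin37 and Lin52, had log2FC values of 0.51, 0.14 and -0.09 with adjusted p between 0.127 and 0.948. Tfdp2, a dimerisation partner of E2F factors, was 5.45 ± 1.05 and 2.37 ± 0.324 CPM (log2FC -1.21, adjusted p = 0.00802). Cdk6 and Cdkn2c kept the call in all 19 alternative analyses. Tfdp2 lost it in 1, without controls C1 and C6 (log2FC -1.18, adjusted p = 0.0614). Lin9 lost it in 5, with the Xist level as a covariate (adjusted p = 0.0629), without C1 and C6 (0.0911), and without control B1 (0.0626), control C6 (0.0534) or RoraEKO C2 (0.0761), with log2FC between -1.40 and -1.24.

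Among 55 other mitosis genes tested, 2 passed the cutoffs, both lower in RoraEKO (3.64%, close to the 3.22% of all genes). Espl1, which encodes separase, the protease that cuts cohesin at anaphase, was at 5.06, 6.94, 4.26 and 11.6 CPM in control and 1.37, 1.73, 1.25 and 2.5 CPM in RoraEKO libraries (log2FC -2.02, SE 0.377, adjusted p = 0.00980). Tacc3, which crosslinks spindle microtubules, was 6.41 ± 1.14 and 2.68 ± 0.791 CPM (SD, n = 4 each; log2FC -1.25, adjusted p = 0.0198). It lost the call in 6 of 19 alternatives. With the Xist level as a covariate its log2FC was -1.01 (adjusted p = 0.110), without C1 and C6 it was -0.96 (adjusted p = 0.191), and without C1 and RoraEKO B4 it was -1.24 (adjusted p = 0.111). Without control C1, control C6 or RoraEKO C3 alone the adjusted p was 0.0607, 0.0568 and 0.0520. Of 16 spindle pole and centrosome genes, 1 was lower and 1 higher (6.25% each, beside 3.22% and 2.3% of all genes). These were Fam83d and Wdr62, each changed by more than 10-fold. Fam83d, which recruits casein kinase 1 to the spindle, was at 20.6, 26.4, 16.7 and 45.2 CPM in control and 2.15, 1.44, 1.73 and 2.75 CPM in RoraEKO libraries. That is 13.5-fold lower (log2FC -3.76, SE 0.363, adjusted p = 0.000436). Wdr62, a spindle pole protein known for its role in microcephaly, was at 3.77, 2.4, 3.79 and 3.23 CPM in control and 24.8, 45.7, 47.6 and 33.5 CPM in RoraEKO libraries, 11.4-fold higher (log2FC 3.52, SE 0.265, adjusted p = 0.000112).

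The 43 other S phase genes included 2 that were higher (4.65%, beside 2.3% of all genes). E2f8, an atypical E2F that represses E2F targets, was 15.4 ± 3.34 CPM in control and 24.7 ± 1.94 CPM in RoraEKO libraries (SD, n = 4 each; log2FC 0.68, adjusted p = 0.0367). Timeless, a component of the replication fork protection complex, was 0.924 ± 0.301 and 2.46 ± 0.235 CPM (log2FC 1.4, adjusted p = 0.0194). Both calls were lost in many alternatives, E2f8 in 9 and Timeless in 7 of 19. E2f8 lost it without control A1 (fold under the cutoff, log2FC 0.58), control B1, control C1, RoraEKO B4, C2 or C3, with adjusted p up to 0.106. It also lost it without C1 and B4 (log2FC 0.62, adjusted p = 0.198), with library size alone (0.63 and 0.0746) and with the Xist level as a covariate (0.84 and 0.0520). Timeless lost it with that covariate (log2FC 1.37, adjusted p = 0.109), without C1 and C6 (1.43 and 0.113), without C1 and B4 (1.46 and 0.0878), and without control B1, control C6, RoraEKO C2 or C3 (log2FC 1.25 to 1.44, adjusted p up to 0.0607). Of 19 checkpoint and p53 response genes, 2 were lower (10.5%, beside 3.22% of all genes). Mad2l2 (REV7), a subunit of DNA polymerase zeta and of shieldin, was at 22.5, 27.5, 18.5 and 37.2 CPM in control and 3.13, 2.71, 3.13 and 3.49 CPM in RoraEKO libraries, 8.47-fold lower (log2FC -3.08, SE 0.226, adjusted p = 0.000123). The gene also overlaps others on the opposite strand. Btg2, an antiproliferative p53 target, was 107 ± 16.8 and 67.9 ± 8.85 CPM (log2FC -0.66, adjusted p = 0.0288), and lost the call in 10 of 19 alternatives. With the Xist level as a covariate its log2FC was -0.60 (adjusted p = 0.123), without C1 and C6 it was -0.56 (0.116), and without C1 and B4 it was -0.74 (0.0744). The adjusted p was 0.0531 when all genes with at least 1 count were tested. It was up to 0.100 without control B1, control C6 or any 1 of the 4 RoraEKO libraries, with log2FC between -0.67 and -0.52.

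**Figure D5:**
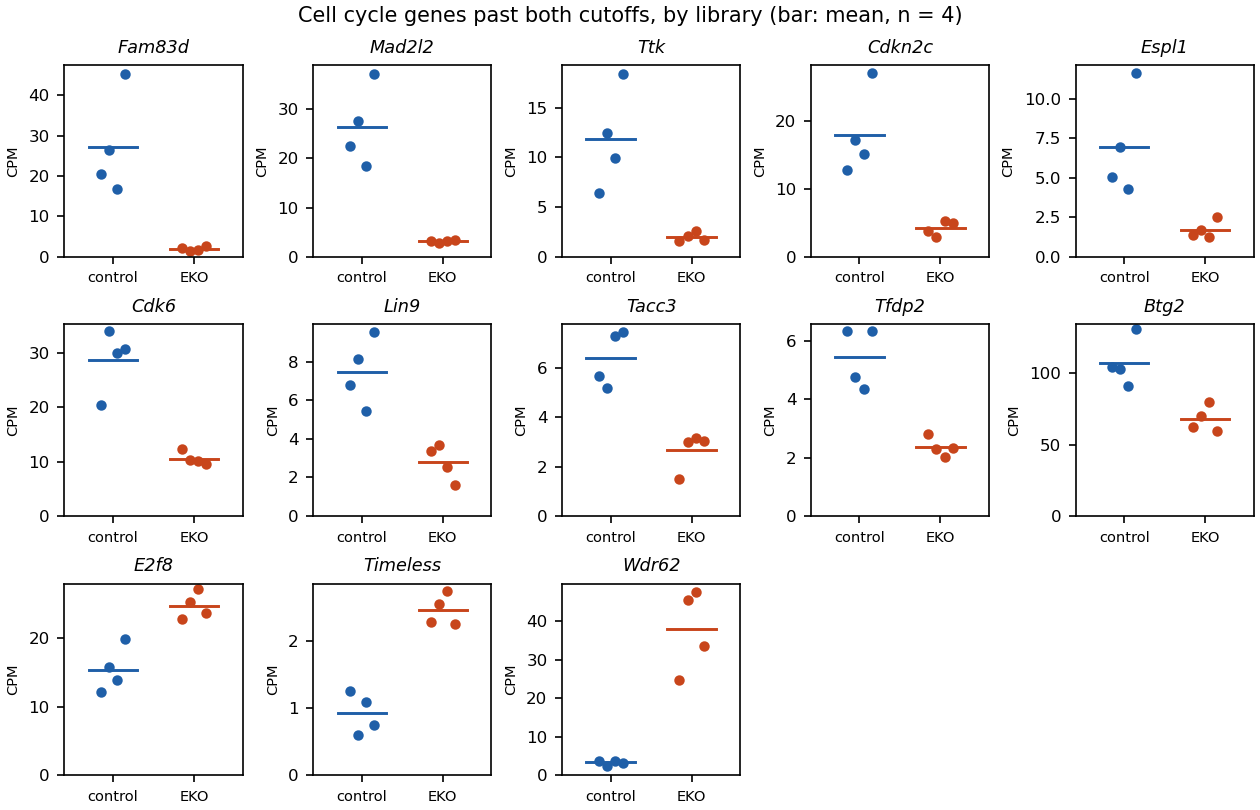
Level in CPM, on linear axes from 0, of Ttk and the 12 other cell cycle genes past both cutoffs, 1 point for each library and a bar for each genotype mean (n = 4), ordered by fold change from Fam83d to Wdr62. No control point overlaps a RoraEKO point in any panel, in genes selected by these same values. The control values of the lower genes spread more widely than their RoraEKO values in most panels.

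The upper end of that control spread came mostly from 1 library. Control C6 was the highest control in 8 of the 10 cell cycle genes that were lower in RoraEKO, Ttk included. Over all 423 genes called lower, C6 was the highest control in 59.3%. Without C6, Ttk had a log2FC of -2.25 (adjusted p = 0.00346, edgeR quasi-likelihood test) and stayed past both cutoffs. Of the other 9 lower genes, Tacc3, Lin9 and Btg2 then missed the cutoff, with adjusted p between 0.0534 and 0.0571 and log2FC of -1.14, -1.24 and -0.52 beside -1.25, -1.41 and -0.66 with all libraries.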

How the data were processed

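Epidermis of 4 control and 4 RoraEKO mice was analysed. Per the labels and the study's methods, the authors made polyA-selected stranded libraries, used Skewer for trimming, STAR 2.5.3a for alignment to GRCm39 and RSEM for estimating counts per gene. They deposited expected counts for 55416 Ensembl genes, not normalized, and the annotation release is not given in the sources used here. Strand use in counting is not given either. Symbols came from GENCODE M39, which held 54749 of the identifiers.

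Rounding to whole numbers came first. The filterByExpr filter kept 13147 genes, which were scaled with TMM. Testing used edgeR 4.0.16 (quasi-likelihood, legacy form, no covariates, R 4.3.3), with Benjamini-Hochberg adjustment over all genes tested and a fold cutoff of 1.5, following the study's cutoffs. Intervals are limma-trend 95% intervals (limma 3.58.1, prior count 2), used as intervals only. Standard errors are of the difference of mean log2 CPM. DESeq2 1.42.0 was an alternative. Scripts were tested on simulated data. Intervals and floors of 3 counts cover counting and replicate error as stated, and p-values the spread between these libraries.

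The members and all lists were chosen with earlier results of these data known. Values in every library are given for members past the cutoffs, 15 members set by name, and the 3 highest, 3 lowest and 3 most significant members. Other genes are given by range and counts. Of further lists, genes past the cutoffs are given by library or by mean and SD, and other MuvB subunits were added after seeing their values. Analyses without C1 and B4, without C1 and C6, and without Ttk in its list were added after seeing the data. Plots were drawn with matplotlib 3.10.9.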

Additional observations from a re-analysis of the deposited data

Results flagged for a closer look

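In 6 of 88 groups of 4 libraries (44 genes in 2 genotypes), 1 library stood far from the other 3 by Dixon's 95% criterion for the gap over the range, and chance gives about 1 in 20 such groups. All 6 were control C1 or RoraEKO B4. In control C1, Ccna2 was at 3.36 CPM (others 1.53 to 1.65), Birc5, the survivin gene of the chromosomal passenger complex, at 4.54 CPM (others 1.53 to 1.83), and Cenpf at 1.70 CPM (others 0.546 to 0.713). In RoraEKO B4, Aurkb was at 1.4 CPM (others 0.457 to 0.549), Cdt1 at 2.51 CPM (others 1.30 to 1.5), and the inhibitor Cdkn1b at 13.8 CPM (others 17.8 to 18.3). Among these flagged values B4 was thus high in Aurkb and Cdt1 and low in Cdkn1b. The other inhibitors did not stand apart in B4. Cdkn1a was at 524 CPM in B4 and at 444, 526 and 470 CPM in A3, C2 and C3. Cdkn1c was at 0.657 CPM in B4 and at 1.37, 0.578 and 1.30 CPM in A3, C2 and C3. B4 also had the highest sum of basal keratinocyte markers, 1265 CPM. The part of that marker level in these values was not tested.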

How the results depend on the processing

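No member was called higher in any alternative. The number of members called lower was 1 to 2 over all alternatives. It was 2 with DESeq2 and with the title letter as a replicate block (Ttk and Rrm2 in both), and 2 with control C1 and RoraEKO B4 both left out (Ttk and Cdc20). Leaving out 1 library at a time gave 1 to 2, with Rrm2 added without control A1 and Cdc20 added without RoraEKO B4. The gap of 0.19 between the S phase and mitosis medians was -0.042 among genes with at least 10 counts in every library, a filter that drops low mitosis genes, and 0.018 to 0.30 with 1 library left out, lowest without control C1. The title letters A, B and C are shared by the genotypes, and same-letter deviations correlated at 0.48, 0.05 and 0.59. Libraries of A and of C thus deviated together in part. The main test had no term for the letter, whose meaning is not given, and a fit with it was an alternative. With the letter as a replicate block, 420 genes were higher and 579 lower over all genes, beside 302 and 423. Other counts over all genes were 478 higher with DESeq2, 174 with the Xist level as a covariate, 174 without control B1 and 188 without RoraEKO C3. They were 162 higher and 270 lower without C1 and B4, and 147 and 167 without C1 and C6. Of 374 values recomputed for the 20 members given in full, 5 gained a call and none lost one. Depth limits the mitosis genes most, since 11 of 24 had fewer than 10 counts in a library.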
